A study of Homo sapiens with 4 samples.

Results

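CD68, a heavily glycosylated membrane protein of lysosomes and late endosomes, and 42 other genes of the lysosome were followed in the transcriptome of ISO-treated bladder cancer cells. These 43 genes are among the 47432 genes listed in the expression table. The list was built around CD68, which was chosen by its higher level in ISO than in control in these same libraries, and the other 42 genes were chosen by their known function in the lysosome. The values of CD68 are therefore a description with no test, and CD68 is left out of every count of members. The question was whether other lysosomal genes shared the difference seen for CD68.

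RNA-seq was performed on T24 cells, an established line derived from a human bladder carcinoma and labelled as urinary bladder epithelial. Isorhapontigenin (ISO), a plant stilbene related to resveratrol, was given at 20 µM for 24 h to 2 samples, and 2 samples served as control. The controls are labelled untreated, while the methods of the study name DMSO as the vehicle. All 4 samples are the same line, and no source used here says that the 2 samples of a group, named a and b, were separate cultures, so the tests are set against a spread between samples that may be only technical.

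Lysosomes are acidic compartments in which proteins, glycans and lipids are broken down. The V-ATPase pumps protons into the lumen, the LAMP proteins line the limiting membrane, and most soluble hydrolases are carried there by mannose 6-phosphate receptors. In human cells TFEB, TFE3 and MITF activate many lysosomal genes through a promoter element, known as CLEAR, whose core is the E-box CACGTG. CD68 belongs to the LAMP family and is best known as a marker of macrophages, although other cell types also express it.

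Promoters of 5 members are shown, because they contrast the gene that chose the list and 2 genes that passed the test with 2 lysosomal membrane genes that carry the CLEAR core. Each is the RefSeq sequence of build GRCh38.p14 from 250 bases before to 50 bases after the RefSeq start of the gene, read 5′ to 3′ on the strand of the gene, with CACGTG in capitals. The windows are chr17:7579388-7579687 on the plus strand for CD68, chr11:88337687-88337986 on the minus strand for CTSC, chr18:23586457-23586756 on the minus strand for NPC1, chr13:113296989-113297288 on the plus strand for LAMP1 and chr19:7522374-7522673 on the plus strand for MCOLN1. The RefSeq start lies 147 bases for CD68 and 21948 bases for CTSC downstream of the outermost start in GENCODE v44, and the starts are the same for the other 3 genes.
CD68: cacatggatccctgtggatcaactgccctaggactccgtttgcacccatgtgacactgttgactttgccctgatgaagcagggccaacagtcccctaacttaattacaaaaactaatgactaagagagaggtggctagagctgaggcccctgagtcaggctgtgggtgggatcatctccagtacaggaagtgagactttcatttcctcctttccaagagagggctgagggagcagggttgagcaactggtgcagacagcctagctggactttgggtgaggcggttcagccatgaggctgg
CTSC: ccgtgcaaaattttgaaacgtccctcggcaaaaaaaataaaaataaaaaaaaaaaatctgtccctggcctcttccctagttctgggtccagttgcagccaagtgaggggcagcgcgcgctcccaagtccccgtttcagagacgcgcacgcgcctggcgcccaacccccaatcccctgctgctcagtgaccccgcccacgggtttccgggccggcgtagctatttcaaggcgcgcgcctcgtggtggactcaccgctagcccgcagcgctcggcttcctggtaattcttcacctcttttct
NPC1: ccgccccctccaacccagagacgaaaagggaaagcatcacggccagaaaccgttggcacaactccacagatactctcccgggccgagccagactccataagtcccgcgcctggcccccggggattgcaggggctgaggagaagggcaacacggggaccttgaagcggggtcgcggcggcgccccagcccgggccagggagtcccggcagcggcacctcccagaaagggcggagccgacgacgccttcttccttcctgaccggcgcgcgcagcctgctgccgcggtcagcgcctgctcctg
LAMP1: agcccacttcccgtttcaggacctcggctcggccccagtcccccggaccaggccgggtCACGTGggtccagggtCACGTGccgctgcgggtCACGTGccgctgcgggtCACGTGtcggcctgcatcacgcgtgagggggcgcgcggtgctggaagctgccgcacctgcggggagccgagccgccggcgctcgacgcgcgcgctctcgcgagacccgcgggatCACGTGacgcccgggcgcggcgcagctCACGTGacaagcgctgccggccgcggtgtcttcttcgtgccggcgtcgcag
MCOLN1: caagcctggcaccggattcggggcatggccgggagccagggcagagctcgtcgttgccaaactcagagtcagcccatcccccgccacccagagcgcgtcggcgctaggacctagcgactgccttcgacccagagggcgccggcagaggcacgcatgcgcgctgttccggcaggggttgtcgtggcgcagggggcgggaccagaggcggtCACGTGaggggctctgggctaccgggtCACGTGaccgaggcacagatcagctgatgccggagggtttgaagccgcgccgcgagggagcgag

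The window of CD68 held no CACGTG, and neither did those of CTSC and NPC1. LAMP1 carried 6 copies and MCOLN1 carried 2. Of the 42 other members, 28 matched a RefSeq promoter, and CACGTG was found in 9 of these 28 (32.1%), namely ARSB, CD63, CTSA, CTSD, CTSF, GAA, LAMP1, MCOLN1 and NEU1. The members with no entry were NAGLU, PSAP, CTSS, CTSO, CTSK, CTSB, ARSA, LGMN, HEXA, ASAH1, LAMP2, MANBA, LAMP3 and SGSH. Over all 27305 genes with a promoter window, 8.77% held it. The longer palindrome TCACGTGA, which contains CACGTG, was found in CTSA, GAA, LAMP1 and MCOLN1 and in 1.18% of all genes. The element GAAANNGAAA, the core of the interferon-stimulated response element, was found in none of the 28 members, nor in CD68, and in 4.38% of all genes. Both strands were read, and a gene with several windows counted once. A match is a match of letters and was not tested as a binding site.

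The table gives RPKM, that is, reads divided by the exon length of the gene and by the mapped reads of the library. The recovered reads on genes ranged from 32349827 to 42879427 per library. The 42 members without CD68 had 48 to 37119 reads in a library, and all 42 passed the filter of a mean of at least 0.1 RPKM and were tested. Libraries were scaled by TMM, with factors from 0.971 to 1.03, before fold changes were computed on the scale of log2(RPKM + 0.1), and the values per library below are RPKM as deposited. The threshold was an adjusted p under 0.05 (limma, Benjamini-Hochberg) over all 15304 genes tested. By this rule 596 genes (3.89%) were higher and 909 genes (5.94%) were lower in ISO, 9.83% in either direction. Because the RNA is from bulk cells, fewer cells that express a gene and less of its RNA per cell cannot be told apart.

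CD68 had 5.09 and 4.85 RPKM in the control libraries and 12.2 and 12.0 RPKM in the ISO libraries. Both ISO libraries lay far above both control libraries, and the libraries of a group were close to each other. The means were 4.97 ± 0.17 RPKM in control and 12.1 ± 0.11 RPKM in ISO (SD, n = 2), from 493 and 444 reads in control and 1078 and 883 reads in ISO. After scaling, the log2 fold change was 1.20 (SE 0.049), a 2.31-fold higher level. Among all 15304 genes tested, CD68 ranked 45 by log2 fold change. Among the 6208 genes with a mean of at least 5 RPKM over the 4 libraries it ranked 2. With a control mean of 4.97 RPKM, CD68 reached that mean only through its ISO libraries, which also chose it. Both ranks therefore follow from that choice and are a description only. By mean RPKM, CD68 moved from rank 29 of the 43 members in control to rank 17 in ISO.

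**Figure D1:**
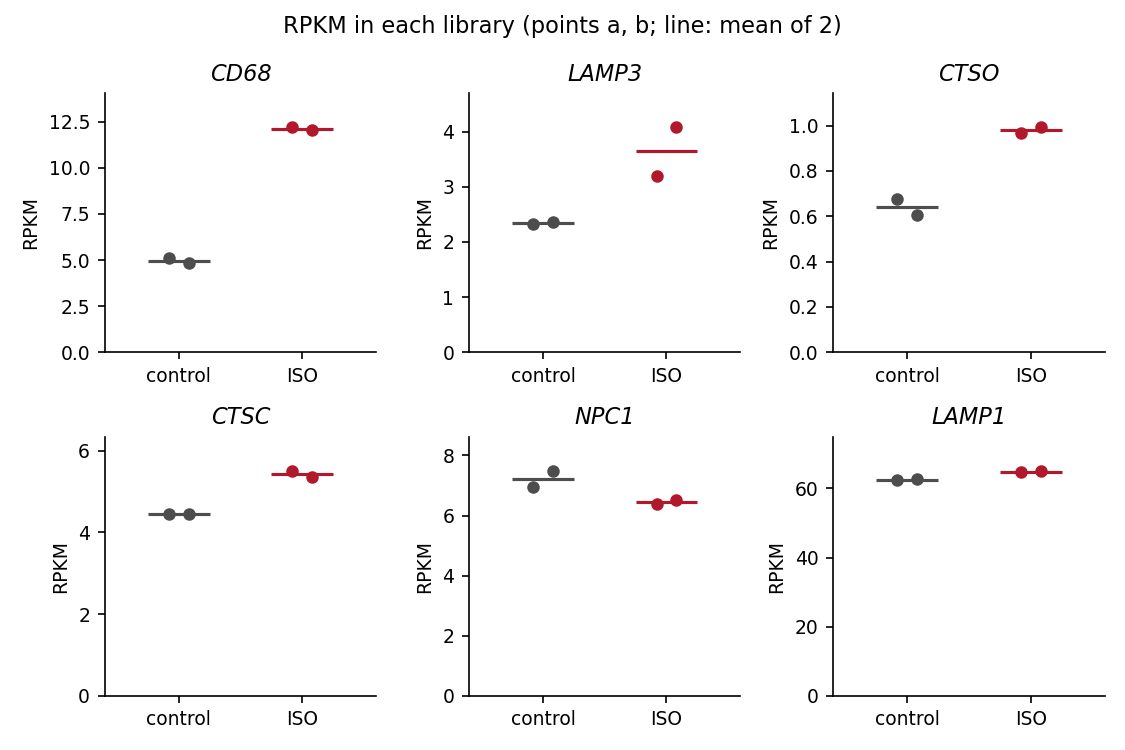
RPKM in each library of CD68, LAMP3, CTSO, CTSC, NPC1 and LAMP1, 1 panel per gene with a linear axis from 0, with 1 point for each control (grey) and ISO (red) library and a line at the mean of 2. The points of CD68 lie at 12.2 and 12.0 RPKM in ISO and at 5.09 and 4.85 RPKM in control, while the 4 points of LAMP1 lie between 62.4 and 65.1 RPKM.

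CD68 lies on the plus strand of chromosome 17 from position 7579491 to 7582111 (hg38, GENCODE v44), between EIF4A1, a translation initiation helicase, and MPDU1, a protein needed for the use of dolichol-linked mannose. A transcript that reads through from EIF4A1, ENSG00000264772, shares 1765 of the 2163 exon bases of CD68 (81.6%) on the same strand. Its levels were 0.848 and 0.825 RPKM in control and 0.962 and 1.19 RPKM in ISO. This transcript stayed far below CD68 in every library, and its log2 fold change of 0.26 did not pass (limma adjusted p = 0.21). No source used here says how reads on shared bases were assigned. These values therefore cannot show the part of this transcript in the level of CD68, which was not tested. EIF4A1 itself had a log2 fold change of -0.16 and did not pass (limma adjusted p = 0.054). MPDU1 rose from 14.8 and 15.5 RPKM in control to 22.5 and 19.6 RPKM in ISO, by 0.40 on the log2 scale (limma adjusted p = 0.021).

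A difference as large as that of CD68 was not seen in any other member. Of the 42, LAMP3, CTSO and CTSC rose (7.14%, against 3.89% of all genes), NPC1 fell (2.38%, against 5.94%), and 38 did not pass. In either direction 4 members passed, 9.52% against 9.83% of all genes, so the share called was near that of the table. This share differed between members of low and high level, as given below. Without adjustment, 15 members (35.7%) had a p under 0.05, against 27.0% of all genes. The log2 fold changes ran from -0.47 for CTSK to 0.54 for LAMP3, with a median of 0.04, against -0.01 over all genes tested. No member had a 95% interval that reached the 1.20 of CD68, and the highest upper bound was 0.78, for LAMP3. CD68 was chosen by its higher level and ranked 45 of 15304 genes, so most genes lie below it as well. This comparison therefore does not test whether the difference was shared. For 19 members the whole interval lay within 0.2 of 0 on the log2 scale, for 28 within 0.3 and for 35 within 0.5.

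**Figure D2:**
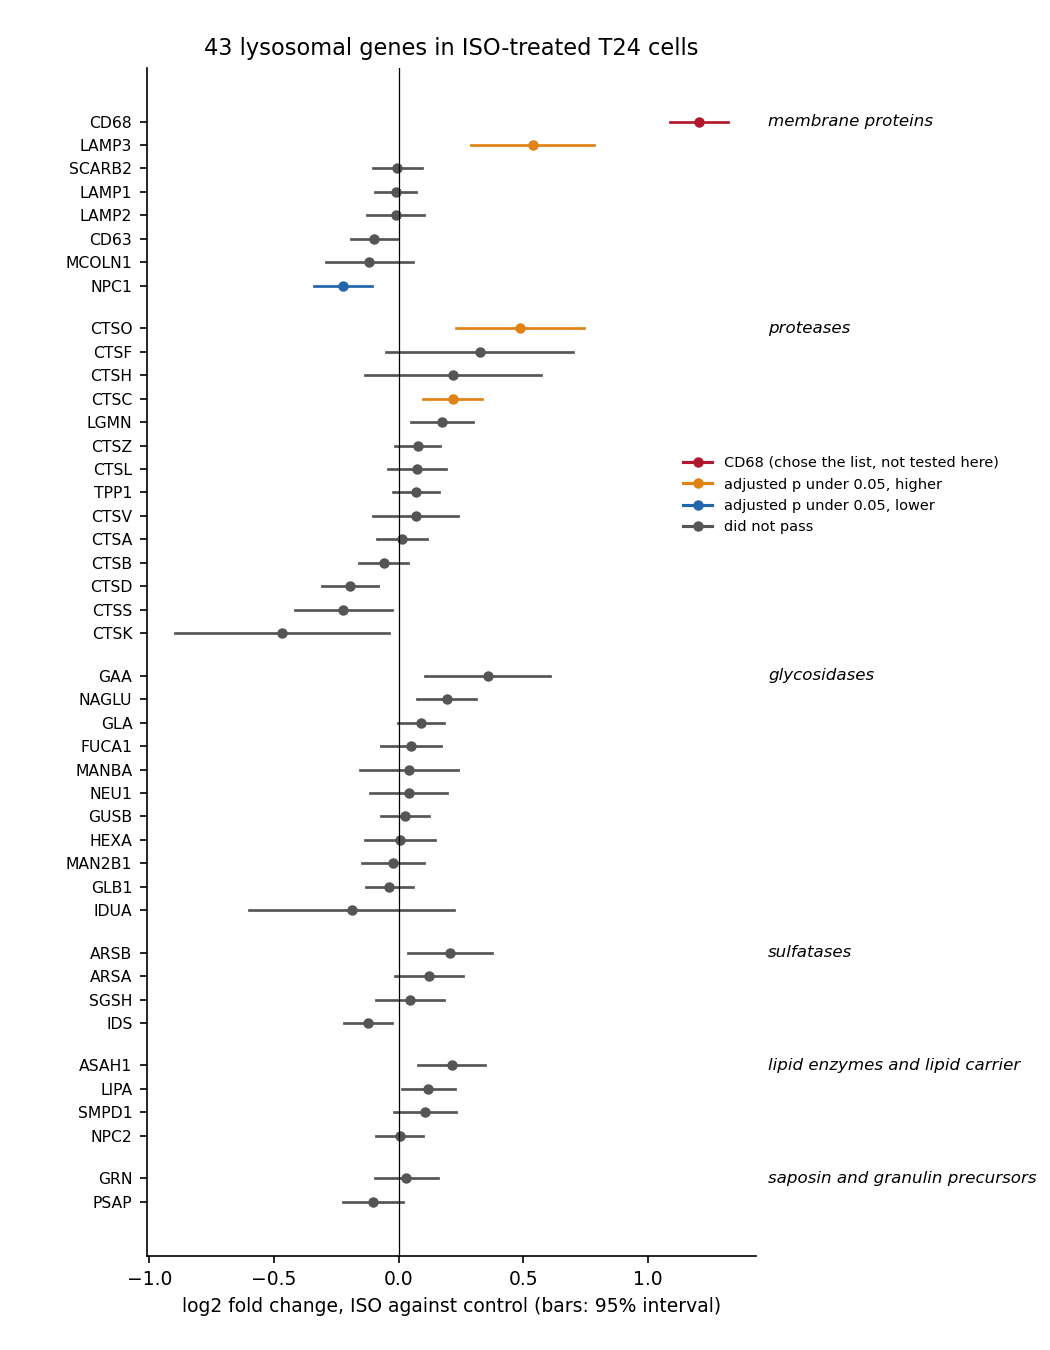
Log2 fold change of each of the 43 members, ISO against control after TMM scaling, grouped by role, with bars for the 95% interval from 2 libraries per group. CD68 stands at 1.20, the other members lie between -0.47 and 0.54, and LAMP3, CTSO, CTSC and NPC1 carry the colours of genes that passed.

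The libraries of the 2 groups were also compared for overlap after scaling. In 17 of the 42 members (40.5%) both ISO libraries lay above both control libraries, against 27.3% of all genes tested. In 11 members (26.2%) both lay below, against 29.8% of all genes, and in 14 the groups overlapped. The summed RPKM of the 42 members was 1114 and 1077 in control and 1103 and 1131 in ISO, so the groups overlapped in this sum. After TMM scaling the sums were 1146 and 1096 in control and 1086 and 1096 in ISO.

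The count of members that passed depended on the scaling. Without TMM scaling, 9 of the 42 members (21.4%) were higher and 0 were lower in limma, with 18 at an unadjusted p under 0.05, against 9.30% higher and 4.12% lower over all genes. The members added on the higher side were CTSZ, LGMN, GLA, NAGLU, LIPA and ASAH1, and NPC1 no longer passed. Over all genes, 39.6% of calls were higher with scaling and 69.3% without it. With limma-voom on recovered reads, 8 members (19.0%) were higher and 4 (9.52%) were lower, against 8.02% and 10.3% of the 15045 genes tested there. The median log2 fold change of the 42 members was 0.10 without scaling, beside 0.06 for all genes.

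Among the 7 membrane proteins other than CD68, LAMP3 rose (14.3%, against 3.89% of all genes) and NPC1 fell (14.3%, against 5.94%). The other 5 did not pass, and the median log2 fold change of the 7 was -0.01. LAMP3, also called DC-LAMP, is a LAMP family member found in mature dendritic cells and in many tumours. It had 2.33 and 2.37 RPKM in control and 3.20 and 4.08 RPKM in ISO. Both ISO libraries were above both controls, but the ISO libraries differed more from each other than the controls did. The log2 fold change was 0.54 (SE 0.10, limma adjusted p = 0.026), a 1.45-fold higher level. Leaving out ISO replicate b brought the log2 fold change to 0.38 and ended the call (limma adjusted p = 0.070). Leaving out either control library kept the log2 fold change at 0.54 and also ended the call.

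NPC1, which exports cholesterol from the lysosome, had 6.96 and 7.49 RPKM in control and 6.38 and 6.53 RPKM in ISO. Both ISO libraries were below both controls, and the log2 fold change was -0.22 (SE 0.049, limma adjusted p = 0.038), or 0.856-fold. NPC1 did not pass without TMM scaling (limma adjusted p = 0.094). Its call also ended in each of the 4 fits with 1 library fewer.

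LAMP1 and LAMP2, the most abundant glycoproteins of the lysosomal membrane, did not pass. LAMP1 had 62.4 and 62.6 RPKM in control and 64.7 and 65.1 RPKM in ISO, with a log2 fold change of -0.01 after scaling (95% interval -0.10 to 0.07). LAMP2 had 13.3 and 13.2 RPKM in control and 14.2 and 13.4 RPKM in ISO, with a log2 fold change of -0.01 (95% interval -0.13 to 0.10). As deposited, both ISO libraries were slightly above both controls for these genes, and without scaling their log2 fold changes were 0.05. SCARB2, also called LIMP-2, a protein of the lysosomal membrane, had 8.56 and 8.52 RPKM in control and 8.87 and 8.94 RPKM in ISO, with a log2 fold change of -0.01 (95% interval -0.10 to 0.09). CD63, a tetraspanin of late endosomes, had 164 and 166 RPKM in control and 163 and 160.4 RPKM in ISO. Its log2 fold change of -0.10 did not pass (limma adjusted p = 0.17). MCOLN1, the calcium channel of the lysosomal membrane whose promoter holds 2 CACGTG, had a log2 fold change of -0.12 and did not pass.

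Of the 14 proteases, CTSO and CTSC rose (14.3%, against 3.89% of all genes), 0 fell and 12 did not pass. In limma 6 of the 14 had an unadjusted p under 0.05 (42.9%, against 27.0% of all genes). With limma-voom 3 were higher and 3 were lower, where 8.02% and 10.3% of all genes were called. CTSO, a cysteine cathepsin, was a low-level gene with 0.675 and 0.606 RPKM in control and 0.966 and 0.993 RPKM in ISO. The groups did not overlap, and the log2 fold change was 0.49 (SE 0.11, limma adjusted p = 0.039), a 1.40-fold higher level. CTSC, the dipeptidyl peptidase that activates serine proteases of immune granules, had 4.450 and 4.453 RPKM in control and 5.51 and 5.35 RPKM in ISO. Its groups did not overlap either, and the log2 fold change was 0.22 (SE 0.050, limma adjusted p = 0.044), a 1.16-fold higher level. The calls of CTSO and CTSC ended in each of the 4 fits with 1 library fewer.

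The cathepsins CTSB, CTSD, CTSL and CTSV did not pass. CTSD, the main aspartic protease of lysosomes, had 87.9 and 82.4 RPKM in control and 76.3 and 79.4 RPKM in ISO. Both ISO libraries were below both controls, with a log2 fold change of -0.19 that lay just outside the threshold (limma adjusted p = 0.051), while limma-voom called it lower. CTSB, a cysteine cathepsin, had 54.8 and 52.4 RPKM in control and 53.0 and 54.6 RPKM in ISO, with a log2 fold change of -0.06. CTSL, another cysteine cathepsin, had 7.67 and 8.09 RPKM in control and 8.84 and 8.52 RPKM in ISO, with a log2 fold change of 0.07 (95% interval -0.04 to 0.19). CTSV, its close relative, had 2.68 and 2.46 RPKM in control and 2.88 and 2.77 RPKM in ISO, also with a log2 fold change of 0.07. CTSD was the only one of the 4 with all ISO libraries below the controls as deposited. After scaling, both ISO libraries of CTSB were also below both controls, those of CTSL were above, and CTSV overlapped.

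The remaining proteases did not pass in limma, while limma-voom called CTSK and CTSS lower and LGMN higher. CTSK, the cathepsin by which osteoclasts degrade collagen, and CTSS, which trims the invariant chain of MHC class II, had negative log2 fold changes of -0.47 (limma adjusted p = 0.15) and -0.22 (limma adjusted p = 0.14). CTSK had the lowest control mean of all members, 0.337 RPKM. Log2 fold changes were 0.32 for CTSF, 0.22 for CTSH and 0.18 for LGMN, the asparagine-specific protease legumain (limma adjusted p = 0.087). CTSZ, TPP1 and CTSA were within 0.08 of 0.

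Of the 11 glycosidases, which remove sugars from glycoproteins, glycolipids and glycogen, 0 passed in limma, against 9.83% of all genes. An unadjusted p under 0.05 was reached by 2 (18.2%, against 27.0% of all genes). Limma-voom called 2 higher. Those 2 were GAA, the enzyme that degrades glycogen and is lacking in Pompe disease, and NAGLU, which acts on heparan sulfate. GAA had a log2 fold change of 0.36 (limma adjusted p = 0.084) and NAGLU 0.19 (limma adjusted p = 0.059). The other 9 were IDUA at -0.19, GLA at 0.09 and FUCA1, MANBA, NEU1, GUSB, HEXA, MAN2B1 and GLB1, which lay between -0.04 and 0.05. HEXA, whose loss causes Tay-Sachs disease, had a log2 fold change of 0.01 (95% interval -0.13 to 0.15).

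The 4 sulfatases did not pass in limma, where 2 had an unadjusted p under 0.05, and limma-voom called ARSB higher. Log2 fold changes were 0.21 for ARSB, which acts on dermatan sulfate, 0.12 for ARSA, which acts on sulfatide, 0.05 for SGSH and -0.12 for IDS. The groups did not overlap for ARSB and ARSA, with ISO above, nor for IDS, with ISO below. The 4 genes of lipid turnover had log2 fold changes above 0, and 0 passed in limma, with 2 at an unadjusted p under 0.05 and ASAH1 called higher by limma-voom. These were 0.21 for the acid ceramidase ASAH1 (limma adjusted p = 0.064), 0.12 for the acid lipase LIPA, 0.11 for the sphingomyelinase SMPD1 and 0.00 for NPC2, which hands cholesterol to NPC1. PSAP and GRN, the precursors of saposins and granulins, were at -0.10 and 0.03 on the same scale, and neither passed.

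The 3 members that rose were below 5 RPKM in control. Of the 28 members with a control mean of at least 5 RPKM, 0 rose and NPC1 fell in limma, 7 had an unadjusted p under 0.05, and limma-voom called 2 higher and 2 lower. Their log2 fold changes lay between -0.22 and 0.19, with a median of 0.02. Of the 14 members below 5 RPKM, 3 rose (21.4%) and 0 fell, with a median of 0.21 and a range from -0.47 to 0.54. In this group 8 (57.1%) had an unadjusted p under 0.05, and limma-voom called 6 higher and 2 lower. Among the 9159 genes tested below 5 RPKM in control, 291 (3.18%) were higher and 248 (2.71%) were lower, with a median of 0.01. In either direction 5.88% of these genes passed, and 20.2% had an unadjusted p under 0.05. Among the 6145 genes tested with a control mean of at least 5 RPKM, 305 were higher and 661 were lower, with a median of -0.02. Of these genes 15.7% passed in either direction, and 37.0% had an unadjusted p under 0.05. PSAP had the highest control mean of the members, 258.5 RPKM.

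**Figure D3:**
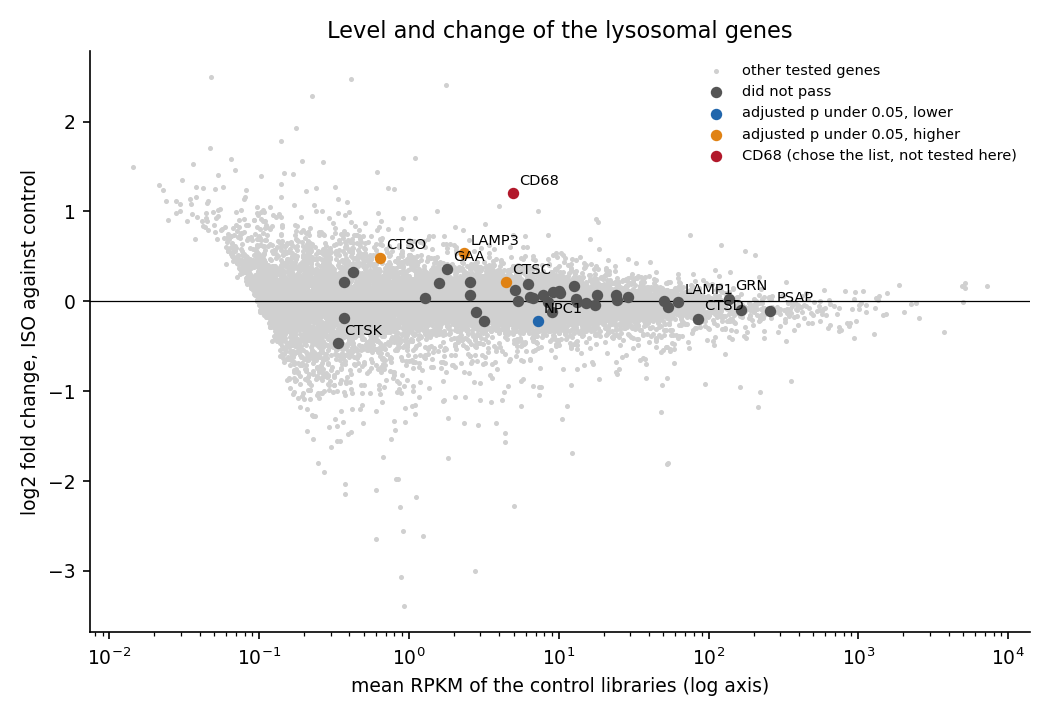
Mean RPKM of the control libraries (log axis) against the log2 fold change in ISO after TMM scaling, with the 43 members over all other tested genes in grey, leaving out 12 genes at 0 in both controls. CD68 lies at 4.97 RPKM and 1.20, apart from the other members, and the members above 5 RPKM lie between -0.22 and 0.19.

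Members with and without the E-box overlapped in their log2 fold changes. The 9 members with CACGTG had a median log2 fold change of 0.01 and a range from -0.19 to 0.36. The 19 members without it, CD68 left out, had a median of 0.05 and a range from -0.22 to 0.22. Members with no promoter entry are in neither group, among them LAMP3 (0.54), CTSO (0.49) and CTSK (-0.47), so these ranges do not cover all members. GAA, with a log2 fold change of 0.36, LAMP1, with -0.01, and MCOLN1, with -0.12, each held 2 copies of the full palindrome TCACGTGA, and CTSA, with 0.01, held 1.

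A further 113 genes in 7 lists were read for comparison, of which 105 were tested. The lists hold lysosomal genes and genes linked to them, such as sorting adaptors, transcription factors and cystatins. In limma 4 rose and 3 fell, 6.67% against 9.83% of all genes, and the median log2 fold change was 0.02. An unadjusted p under 0.05 was reached by 33 of the 105 (31.4%, against 27.0% of all genes), and limma-voom called 13 higher and 8 lower. The list of other hydrolases held 3 of the genes that rose, AGA and ACP2 among them, and 0 fell among its 25 tested genes (12.0% higher, against 3.89% of all genes). In this list 9 genes (36.0%) had an unadjusted p under 0.05, and limma-voom called 8 higher and 0 lower. Its median log2 fold change was 0.11, and 23 of the 25 values (92.0%) were above 0, against 48.6% of all genes. AGA, which cleaves the sugar from asparagine, rose by 0.34 on the log2 scale (limma adjusted p = 0.024), and the acid phosphatase ACP2 by 0.25 (limma adjusted p = 0.034).

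None of the 17 V-ATPase subunits passed in limma, against 9.83% of all genes. Of these subunits 5 had an unadjusted p under 0.05 (29.4%, against 27.0% of all genes), and limma-voom called 1 higher. Their median log2 fold change was -0.01 and their range -0.12 to 0.18. The 21 other membrane proteins and the 15 genes of enzyme sorting also had 0 calls in limma, with medians of -0.01 and 0.00. An unadjusted p under 0.05 was reached by 5 (23.8%) of the membrane proteins and 3 (20.0%) of the sorting genes. With limma-voom, 2 were higher and 1 lower among the membrane proteins, and 1 was higher and 2 were lower among the sorting genes. Of the 7 tested MiT/TFE factors and regulators, FNIP1, a partner of folliculin, fell by 0.22 on the log2 scale (limma adjusted p = 0.046). This was 14.3% of the 7, against 5.94% of all genes. TFEB and TFE3 both had log2 fold changes of -0.02, and MITF, with both ISO libraries above both controls, had 0.20 and did not pass (limma adjusted p = 0.27). Of the 4 tested cystatins, which inhibit cysteine cathepsins, CST3 rose by 0.34 on the log2 scale (limma adjusted p = 0.011). Of the 16 genes of mTORC1 docking and lysosome positioning, 0 rose and 2 fell in limma (12.5%, against 5.94% of all genes). Among them RAB7A, the GTPase of late endosomes, fell by 0.18 on the log2 scale (limma adjusted p = 0.032). An unadjusted p under 0.05 was reached by 9 of the 16 (56.2%, against 27.0% of all genes), and limma-voom called 0 higher and 3 lower.

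**Figure D4:**
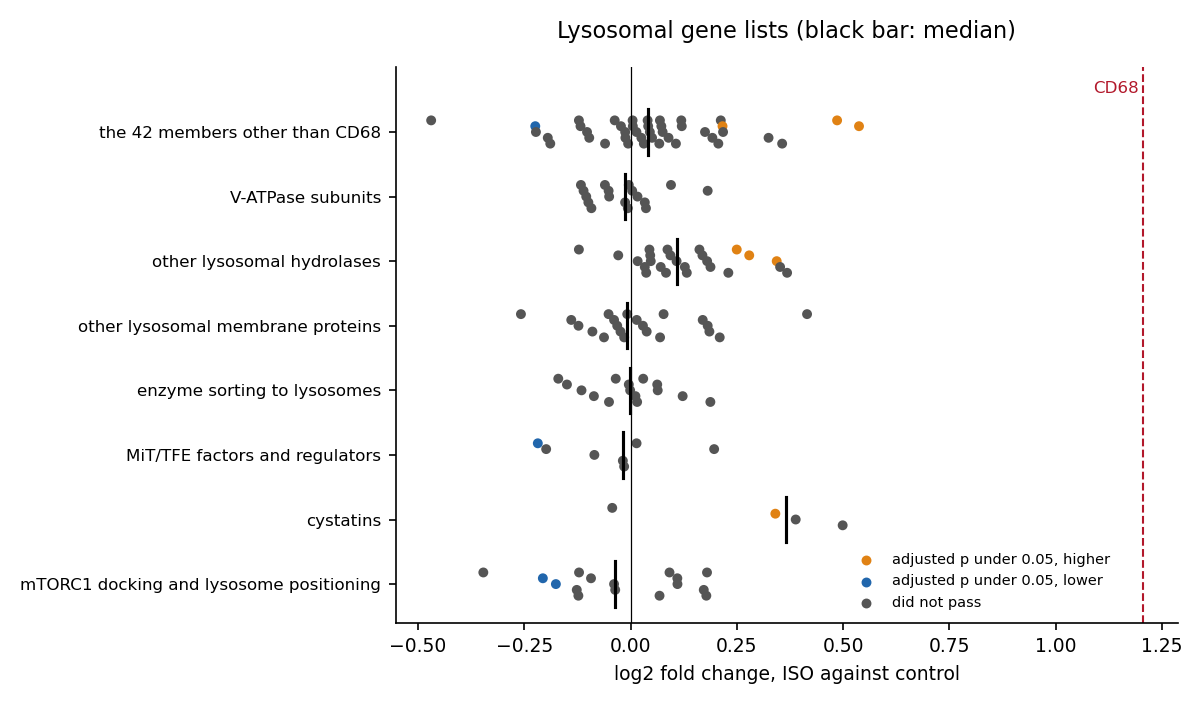
Log2 fold change in ISO against control of every tested gene among the 42 members and in the 7 further lists, 1 point per gene. A black bar marks the median of each list, and a dashed line marks CD68. Every point lies left of the 1.20 of CD68, a gene chosen by its higher level in ISO. The genes that passed are coloured, and the other hydrolases lie mostly above 0 with a median of 0.11.

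Because CD68 marks macrophages, 19 macrophage and leukocyte markers were read. Of these, 9 were at 0 in all 4 libraries, including CD163, PTPRC, AIF1, TYROBP, LYZ and MARCO, and 15 were under 0.1 RPKM in every library. The summed level of the list was 14.9 to 16.4 RPKM in control and 14.5 to 15.4 RPKM in ISO. The 4 that were tested were CD14, ADGRE1, MSR1 and LAPTM5. In limma 0 passed and 1 had an unadjusted p under 0.05, and limma-voom called 1 lower. LAPTM5, which made up most of the summed level, had means of 10.4 RPKM in control and 8.89 RPKM in ISO. Log2 fold changes were -0.29 for LAPTM5, -0.13 for MSR1, 0.09 for CD14 and 0.22 for ADGRE1. After scaling, ADGRE1 had both ISO libraries above both controls, LAPTM5 and MSR1 had both below, and CD14 overlapped. As epithelial markers, KRT7, KRT18 and KRT8 had control means of 370.4, 300.3 and 111 RPKM, while KRT5 was at 0 and CDH1 had a single read in 1 library, so markers of the labelled cell type were present only in part. KRT7 fell by 0.32 on the log2 scale (limma adjusted p = 0.0089), and KRT18 and KRT19 fell by 0.28 and 0.38. The part of these differences in the values of the lysosomal genes was not tested.

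The counting of reads on overlapping genes bears on some members. No source used here says whether strand was used or how reads on shared bases were assigned. Beside CD68, 18 of the 42 members share exon bases with another gene of the table, and 9 share over 10% of their bases. For CTSZ the share is 31.7%, with NELFCD on the opposite strand. NELFCD went from 19.8 and 19.3 RPKM in control to 23.0 and 22.6 RPKM in ISO. For IDS it is 75.0%, with a transcript on the same strand that stayed under 0.1 RPKM in every library. LIPA shares 1.3% and 1.9% of its bases with the interferon-induced genes IFIT2 and IFIT3 on the opposite strand, which went from 5.74 and 5.95 RPKM to 7.66 and 8.49 RPKM and from 4.60 and 4.92 RPKM to 7.45 and 7.79 RPKM. NPC1 shares 6.38% with RMC1 on the opposite strand, and LAMP3, CTSO and CTSC share none. The part of such overlaps in the values of the members was not tested.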

How the data were processed

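RNA-seq libraries of T24 cells were analysed from the table of RPKM values deposited by the authors, 1 value per gene and library. According to the methods of the study, the authors trimmed paired-end reads, aligned them to hg38 with up to 2 mismatches in Biomedical Genomics Workbench 22.0.2, summed reads on exons and divided by exon length and library size. The annotation release is not given in the sources used here. The table also holds the authors' group means, which were not used.

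RPKM values were scaled by TMM (30% of log ratios and 5% of levels trimmed), as the study scaled before its test, and log2(RPKM + 0.1) was fitted in R 4.3.3 by limma 3.58.1, two-sided and using a variance trend. The 15304 genes whose RPKM averaged 0.1 or more over the 4 libraries were tested. Reads were recovered with exon lengths of GENCODE v44, and at least 98.8% of values above 0 came within 0.05 of a whole read. A count of 0 allows up to 3 reads, or 0.0670 to 0.0885 RPKM for a transcript of 1 kilobase, for counting error only. The a minus b differences of control and ISO had a Pearson r of -0.126 across 6208 genes. With 1 difference per group, this value cannot show whether a and b were prepared as pairs. No pairs were used in the main fit, and the letters as a block were an alternative.

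The members and lists were chosen with earlier results of these data known. Values per library are given for CD68, the members that passed, the LAMP family and its neighbours in the membrane, and CTSB, CTSD, CTSL and CTSV. In each list up to 3 genes that passed in each direction are named by the smallest p, and some of these genes are not reported here. The alternatives were other scaling, pseudocounts and filters, each library left out, the letters as a block, and limma-voom on recovered reads. Neighbours and overlapping genes of members were named after their values were seen.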

Additional observations from a re-analysis of the deposited data

How the results depend on the processing

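Leaving out 1 library at a time left 0 to 1 of the 42 members called in limma (0 to 1 higher and 0 lower), with 9 to 13 at an unadjusted p under 0.05, 2 to 3 genes of the further lists and 407 to 687 of all genes. No filter left 0 members (0 higher, 0 lower, 15 at an unadjusted p under 0.05) and 1 gene of the further lists. It left 214 of the 24052 genes above 0 in at least 1 library, which were then tested. A mean of at least 1 RPKM gave 8 members (6 higher, 2 lower), 15 genes of the lists and 2154 of the genes that reached this mean. CTSO, CTSF, CTSH, CTSK and IDUA did not reach it and were then not tested, so these counts have a smaller base. Without scaling there were 9 members (9 higher, 0 lower), 17 genes of the lists and 2054 of all genes. Limma-voom on recovered reads gave 12 members (8 higher, 4 lower), 21 genes of the lists and 2763 of all genes, including the 4 members of the main test. The letters as a replicate block gave 1 member (LAMP3, so 1 higher and 0 lower), 3 genes of the lists and 1147 of all genes. A crossed block, chosen after seeing the data, gave 3 members. Median-of-ratios scaling and pseudocounts of 1 and 0.01 kept the same 4 members. The log2 fold change of CD68 was 1.27 without scaling and 1.08 with a pseudocount of 1. Its range with a library left out was 1.16 to 1.25.

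Members that did not pass changed sign near 0. Without scaling, LAMP1 (0.054), LAMP2 (0.053), SCARB2 (0.060), CTSB (0.0062), GLB1 (0.029) and MAN2B1 (0.043) were above 0, and with median-of-ratios scaling SCARB2 was at 0.0017. With a library left out, LAMP2 ran from -0.070 to 0.042, SCARB2 ran from -0.018 to 0.0061, CTSA ran from -0.024 to 0.051, CTSV ran from -0.00076 to 0.14, HEXA ran from -0.061 to 0.071, MANBA ran from -0.0075 to 0.087, MAN2B1 ran from -0.078 to 0.029, NEU1 ran from -0.048 to 0.13, FUCA1 ran from -0.013 to 0.11, SGSH ran from -0.0053 to 0.10, NPC2 ran from -0.034 to 0.041 and GRN ran from -0.032 to 0.094. The cause of these changes was not tested. With 2 libraries in each group, the low members CTSK, CTSF and IDUA have the widest 95% intervals of the 42, and small differences in them were not detectable at this depth.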
